A study of Drosophila melanogaster with 2 samples.

Results

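The 10 genes described here form the core of the circadian clock of Drosophila melanogaster and its main neuropeptide signal: Clk, cyc, per, tim, vri, Pdp1, cwo, cry, Pdf and Pdfr. They were chosen by name from what is known of the clock and not by any measured value, and make up 10 of the 13945 protein-coding genes on the main chromosomes. Chromatin immunoprecipitation followed by sequencing (ChIP-seq) mapped where the nuclear receptor Hr51 sits in the genome of whole embryos aged 14 to 16 h. The embryos, males and females pooled, came from a single transgenic line (strain Dhr51-GFP) that stably makes Hr51 with GFP at its C-terminal end, and both samples carry that fusion protein. The protein was captured with an antibody against GFP according to the description, while the antibody field names Hr51, and the chromatin had been sonicated to 200 to 800 bp. There were 2 samples, biological replicates 1 and 3, in 1 group, so no conditions could be compared and no test was made. All cell types of the embryo are mixed, so a peak cannot be placed in clock neurons or in any other cell, and the sources used here do not say what drives the transgene.

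In the fly clock, the proteins CLOCK and CYCLE pair up, bind the E-box sequence CACGTG and switch on per, tim, vri, Pdp1 and cwo. PER and TIM return to the nucleus to block that pair, while VRI and PDP1 act on Clk, CWO acts on E-box genes, and cryptochrome carries light information to TIM. The neuropeptide PDF and its receptor pass time information between clock neurons. Hr51, also called unfulfilled, is known to be needed in PDF neurons for adult behavioural rhythms and to act with the nuclear receptor E75 on transcription of per.

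Peaks were deposited as 4 lists. Each replicate had a list of 30000 peaks, a pooled list covered both with another 30000, and a list thresholded by irreproducible discovery rate, called reproducible here, held 7229. The reproducible peaks were, all 7229 of them, the pooled peaks of highest signal, so the name does not say that each was called in both replicates. Each peak has a summit, its point of highest enrichment, and a signal, the authors' score for that peak, which ran from 135 to 5850 (median 270) in the reproducible list. Signals were used to rank peaks within a list, and their scale and the read depth are unknown. Of the reproducible peaks, 97.3% overlapped peaks of both replicates; 2.09% overlapped none in replicate 1 and 0.622% none in replicate 3. In the other direction, 3.29% of the 7229 highest replicate 1 peaks and 5.05% of the 7229 highest replicate 3 peaks overlapped no pooled peak. A gene counts below as having a summit when one lies in its body or within 1000 bp of either end, and as having a promoter summit when one lies within 1000 bp of a transcription start site (TSS). Coordinates are on dm6.

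The DNA at the 6 strongest summits of the clock genes is shown first, because these are the places with the highest signal and they ranked high in both replicates. Each line is the 101 bp centred on a summit, read 5′ to 3′ on the strand of the gene, from the Release 6 reference genome. Capitals mark a match on either strand to one of 7 short motifs that were searched.
Pdp1, signal 1419, chr3L:7855934-7856034, minus strand: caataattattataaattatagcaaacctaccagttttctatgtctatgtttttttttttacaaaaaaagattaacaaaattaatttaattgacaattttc
cwo, signal 1098, chr3R:10393869-10393969, plus strand: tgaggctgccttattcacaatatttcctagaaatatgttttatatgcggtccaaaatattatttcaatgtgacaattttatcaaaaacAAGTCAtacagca
Pdp1, signal 1034, chr3L:7811060-7811160, minus strand: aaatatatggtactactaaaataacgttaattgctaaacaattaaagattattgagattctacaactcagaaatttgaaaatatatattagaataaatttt
Pdp1, signal 989, chr3L:7851021-7851121, minus strand: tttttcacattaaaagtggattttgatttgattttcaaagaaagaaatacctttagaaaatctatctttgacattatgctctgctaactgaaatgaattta
vri, signal 921, chr2L:5299390-5299490, plus strand: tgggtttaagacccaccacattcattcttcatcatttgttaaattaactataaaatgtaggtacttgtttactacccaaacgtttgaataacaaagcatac
vri, signal 482, chr2L:5293300-5293400, plus strand: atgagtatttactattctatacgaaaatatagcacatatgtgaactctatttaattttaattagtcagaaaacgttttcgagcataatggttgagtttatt

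A further 4 windows are shown for the summits at cry and tim, for the Pdp1 summit beside an E-box, and for the peak upstream of per that appeared in replicate 1 alone. Capitals mark CGATA in cry, GAGAG and its reverse complement in tim, and the E-box CACGTG in Pdp1.
cry, signal 398, chr3R:19211859-19211959, plus strand: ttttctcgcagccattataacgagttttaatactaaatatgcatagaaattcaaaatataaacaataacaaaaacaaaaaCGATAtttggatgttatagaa
tim, signal 150, chr2L:3506949-3507049, minus strand: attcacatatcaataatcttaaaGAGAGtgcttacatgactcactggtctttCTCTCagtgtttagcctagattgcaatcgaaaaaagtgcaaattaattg
Pdp1, signal 144, chr3L:7859941-7860041, minus strand: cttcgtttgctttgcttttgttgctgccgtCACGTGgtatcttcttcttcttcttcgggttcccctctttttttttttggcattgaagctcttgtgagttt
per, replicate 1 signal 95.8, chrX:2685289-2685389, plus strand: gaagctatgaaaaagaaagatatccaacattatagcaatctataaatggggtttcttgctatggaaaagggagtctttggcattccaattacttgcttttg

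Hr51 summits were found at 5 of the 10 genes, namely Pdp1, vri, cwo, cry and tim. Over all protein-coding genes the share was 30.4%. The genes Clk, cyc, per, Pdf and Pdfr had no reproducible summit. Promoter summits were present at 4 of the 10 (Pdp1, vri, cry and tim), against 23.3% of all protein-coding genes, and cwo had its summit deep in an intron. Together the 5 genes held 21 summits, of which 15 were in Pdp1, 3 in vri and 1 each in cwo, cry and tim. None of the 21 lay in coding sequence, 16 lay in introns and in no exon, and 8 were within 1000 bp of a TSS. The same shares over all reproducible summits are not given here, so these counts do not set the clock genes apart. With 15 of the 21 at Pdp1, they describe mostly that gene.

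Gene length went with the chance of holding a summit, so the clock genes were also read against genes of their own size. Of the 6 clock genes of 10 kb and over (Pdp1, Pdfr, vri, tim, cwo and Clk), 4 had a summit, and 66.7% of all genes of that size did. Of the 3 between 2 and 10 kb (per, cry and cyc), 1 had one, against 31.5% of such genes. The only clock gene under 2 kb, Pdf, had none, and 18.5% of such genes had one. The counts of the clock genes were thus close to those of other genes of like length.

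**Figure D1:**
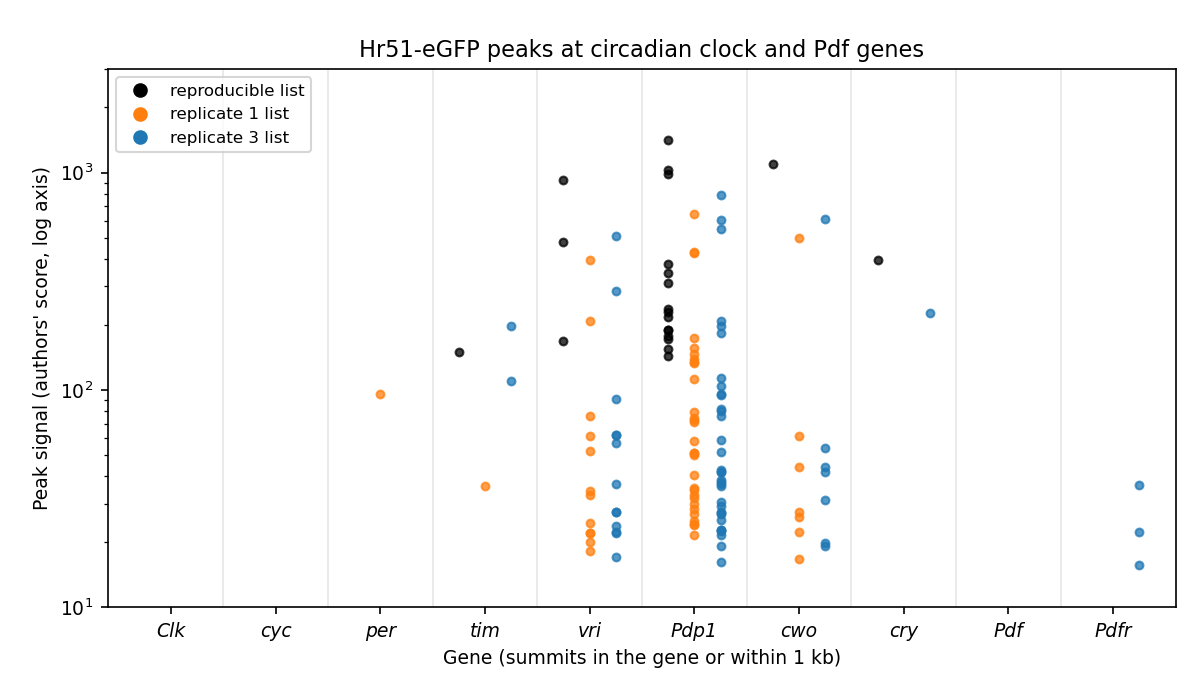
Signal (the authors' score, log axis) of every peak summit in each clock or Pdf gene or within 1 kb of it, in the reproducible list and in the lists of replicates 1 and 3. Pdp1, vri and cwo carry strong summits in all 3 lists, cry has none in replicate 1, per appears in replicate 1 alone, Pdfr in replicate 3 alone, and Clk, cyc and Pdf are empty.

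Clk and cyc, which encode the activators of the clock, had no summit in any of the 4 lists. Clk (FBgn0023076; 3L, 7763233 to 7775603, minus strand) has 5 annotated transcripts from 2 start sites over 12371 bp. The closest reproducible summit was 6.83 kb upstream, in an intron of CG32369, with a signal of 163 and rank 6054 of the list. At cyc (FBgn0023094; 3L, 19813770 to 19815938, minus strand) the closest was 2052 bp upstream. It lay between Fibp and Deaf1, 23 bp upstream of the TSS of Fibp and 184 bp upstream of that of Deaf1. Its signal was 460 in the reproducible list, 154 in replicate 1 and 300 in replicate 3, so a clear peak stood beside cyc but nearer to the starts of those other genes.

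The repressor gene per (FBgn0003068; X, 2685580 to 2692780, plus strand) was bare in the reproducible, pooled and replicate 3 lists. Replicate 1 listed a peak from 2685121 to 2685556, with its summit 241 bp upstream of the TSS shared by both transcripts. This peak had a signal of 95.8 and rank 5257 of 30000. Its −log10 q-value was at the highest value of that list, 4.23, which a peak at rank 7371 also had. The pooled list reached down to a signal of 27 and did not hold it. The closest reproducible summit was 11.1 kb downstream, between Ugalt and eIF2Bbeta, and was the fifth strongest of the whole list, at 5238. The peak at the per promoter therefore rests on 1 library.

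The other repressor gene, tim (FBgn0014396; 2L, 3493986 to 3508119, minus strand), had 1 weak summit. It lay in an intron 219 bp downstream of the nearest of 3 start sites, in a peak from 3506794 to 3507203 with a signal of 150, at 90.6% of the way down the reproducible list. The matching peak had a signal of 36 and rank 15206 in replicate 1, where its summit was 157 bp away, and a signal of 110 and rank 5056 in replicate 3. Replicate 3 held another peak at tim, from 3507504 to 3507707, whose summit was 67 bp upstream of a start site and whose signal, 197, was above that of the first. The replicate 1 and pooled lists did not hold this peak. The peak that both replicates hold at tim was thus weak in replicate 1, and the stronger tim peak of replicate 3 rests on 1 library.

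Pdp1, a PAR-domain bZIP factor of the second feedback loop, was the clock gene with the most summits and the strongest one. The gene (FBgn0016694; 3L, 7811458 to 7867369, minus strand) spans 55912 bp with 13 transcripts from 4 start sites. Its strongest peak ran from 7855684 to 7856238, inside an intron of the longer transcripts, and its summit was 436 bp upstream of the start site that 7 transcripts share. The signal there was 1419 and rank 315 of the reproducible list, with 645 and rank 289 in replicate 1 and 789 and rank 330 in replicate 3. The summits of the replicates were 5 and 10 bp away, so both libraries placed it at the same spot.

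A second strong Pdp1 summit, of signal 1034, lay 348 bp beyond the annotated end of the gene, with no other gene within 1 kb. It had a signal of 427 in replicate 1 and 608 in replicate 3. Another, of signal 989, lay in an intron 4477 bp downstream of the same busy start site, with 430 in replicate 1 and 548 in replicate 3. These 3 summits ranked among the highest 1000 peaks of each replicate. The other 12 had reproducible signals from 144 to 379.

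The Pdp1 summits were crowded. In the gene and its flanks there were 15, against 0.54 per 10 kb over the genome and 2.59 per 10 kb at Pdp1, and 12 of the 13945 protein-coding genes had more. Density sets it less apart, since 74 of the 1977 genes of 10 kb and over had more summits per kb. Leaving out the summit beyond the gene end, 14 lay within 26344 bp of the upstream part of the gene, with a median gap of 1100 bp between neighbours. Only 5 of the 15 were within 1000 bp of one of the start sites. The stretch around the other pair of start sites, at 7828018 and 7833073, held none.

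A few of the weaker Pdp1 peaks differ between lists. The summit of signal 216 at 7864076 matched replicate peaks of 24 and 23 only, so its pooled signal was 4.65 times their sum, where over 7036 matched peaks the median of that ratio was 0.997. The peak it stands beside, at 7863877 and 199 bp away, had 379. The summits of 178 and 189 matched the same replicate 3 peak, of signal 113, which lay 21 bp from one and 248 bp from the other. The pooled list added 17 summits at Pdp1 with signals from 30.2 to 121.

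The vri gene, which encodes a bZIP repressor of Clk (FBgn0016076; 2L, 5288944 to 5311223, plus strand), held 3 summits, all intronic. The strongest, in a peak from 5299265 to 5299628, lay 207 bp upstream of the second of 3 start sites, the start of transcript RC. Its signal was 921 and rank 690, with 397 and rank 717 in replicate 1 and 513 and rank 713 in replicate 3. The next had a signal of 482, in an intron 4406 bp downstream of the first start site, with 207 in replicate 1 and 286 in replicate 3. A weak one, of 168, lay 2202 bp upstream of the second start site and 483 bp from the start of lncRNA:CR45730, with 76 and 91 in the replicates. At each of the 3 the replicates kept the same order, and their summits were at most 41 bp from the reproducible one. Near the third start site, shared by transcripts RA, RD and RF, vri had no reproducible summit, only weaker ones in the other lists. Over the whole gene the pooled list added 11 summits with signals from 27.4 to 130.

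The cwo gene, which encodes a bHLH-ORANGE repressor of E-box genes (FBgn0259938; 3R, 10388258 to 10400752, plus strand), had a single strong summit in an intron. The peak ran from 10393704 to 10394104 with its summit 5661 bp downstream of the only start site. Its signal was 1098 and rank 521 in the reproducible list, 500 and rank 472 in replicate 1 and 614 and rank 523 in replicate 3, with summits 2 and 10 bp away. No promoter summit was listed as reproducible, although the pooled list had one of 79.6 near the start site, among 6 weaker pooled summits from 32.1 to 79.6. The strongest Hr51 place at cwo was therefore inside the gene and not at its promoter.

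**Figure D2:**
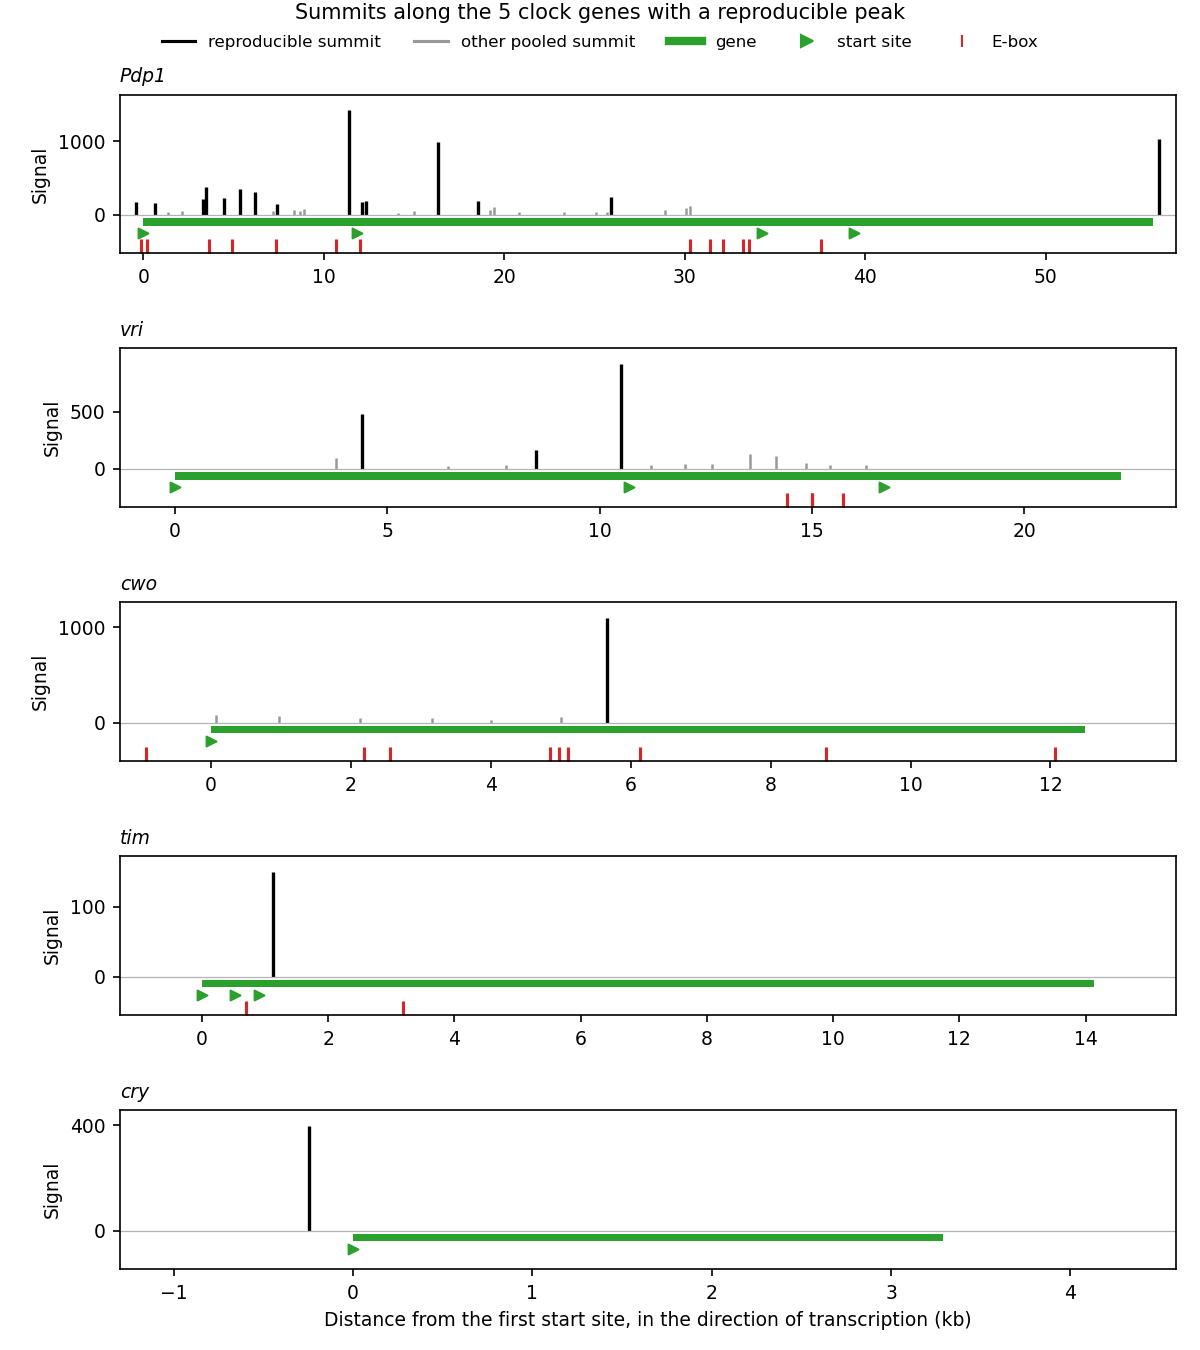
Signal of each summit along the 5 clock genes with a reproducible peak, by distance from the first start site in the direction of transcription (kb), with start sites as arrowheads and E-boxes (CACGTG) as red ticks. Grey bars are summits of the pooled list that are not in the reproducible one. Pdp1 shows summits bunched in its first part and a lone one of 1034 beyond its end. The strongest summit of vri is 3914 bp from its nearest E-box, and that of cwo is 478 bp from its nearest.

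The cry gene, which encodes the blue-light receptor cryptochrome (FBgn0025680; 3R, 19212154 to 19215442, plus strand), had a promoter summit that replicate 1 lacked. The peak ran from 19211776 to 19212072 and its summit was 245 bp upstream of the start site, which the annotation also gives for lncRNA:CR46393. Its signal was 398 and rank 2318 in the reproducible list, and 226 and rank 2333 in replicate 3. Replicate 1 listed no peak there, and its closest summit was 6715 bp upstream, with a signal of 28. Over peaks matched in both replicates the reproducible signal was mostly near the sum of the replicate signals (5th to 95th percentile of the ratio 0.927 to 1.06), and the difference here, 172, would stand above all but 2506 of the replicate 1 peaks. The call at cry rests on replicate 3 and the pooled list.

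The output genes were without reproducible summits. Pdf (FBgn0023178; 3R, 26455462 to 26456141, minus strand), a compact gene of 680 bp for the neuropeptide, had no summit in any list, and the closest reproducible one was 5428 bp upstream in the 5′ UTR of CG5455, with a signal of 230. The receptor gene Pdfr (FBgn0260753; X, 2552206 to 2578640, plus strand) spans 26435 bp, and its 3 peaks, all in replicate 3, had signals of 36.6, 22.2 and 15.7. The lowest of these was near the end of that list, which goes down to 15.6. The closest reproducible summit to Pdfr was 3644 bp downstream at AANATL7, with a signal of 480. A gene without a listed peak may still have enrichment below the lowest listed signals.

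Counting in the other lists changed which clock genes were included more than how many. The pooled list gave the same 5 genes, against 44.9% of all protein-coding genes. The whole replicate 1 list gave 5 (per, tim, vri, Pdp1 and cwo) against 47.0%, and the whole replicate 3 list gave 6 (tim, vri, Pdp1, cry, cwo and Pdfr) against 49.4%. With each replicate held to its 7229 highest peaks, replicate 1 gave 4 (per, vri, Pdp1 and cwo) against 30.8%, and replicate 3 gave 5 (tim, vri, Pdp1, cry and cwo) against 32.5%. In all of these, vri, Pdp1 and cwo were present.

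Across the 21 summits, 20 overlapped a peak in both replicates, and 18 had a summit within 100 bp in both. The 6 strongest, with signals from 482 to 1419, were within the first 7% of both replicate lists. Replicate 3 signals were 1.22 to 1.43 times those of replicate 1 at these 6, and 0.512 to 3.04 times over the 20, where all matched peaks had a median of 1.2. The 6 strongest summits were thus high in both libraries, which is in part built in because the ranking signal is close to the sum of the replicate signals. The cry summit, at 398 above the list median of 270, was the one that replicate 1 lacked.

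**Figure D3:**
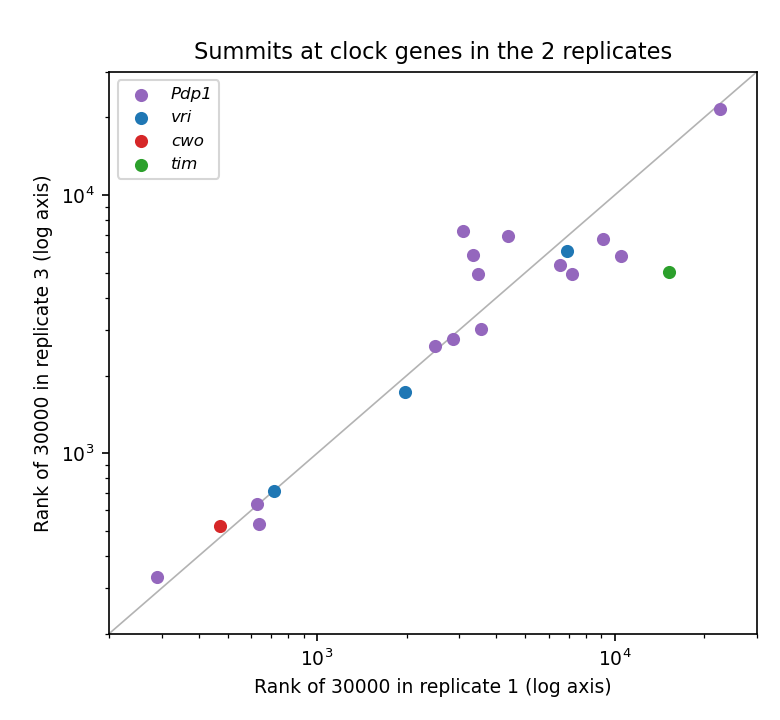
Rank of each clock gene summit in replicate 1 against its rank in replicate 3, both of 30000 and on log axes, with the line of equal rank; the cry summit is absent because replicate 1 has no peak there. The 6 strongest summits lie close to the line, and the tim point lies well below it, at rank 15206 in replicate 1 and 5056 in replicate 3.

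By its strongest summit, Pdp1 stood high among genes but not at the top. Of the 4239 protein-coding genes with a reproducible summit, 417 had a stronger one than Pdp1, 654 than cwo, 849 than vri, 2220 than cry and 4047 than tim. The median strongest signal over those genes was 423, and over genes of 10 kb and over it was 487. Pdp1, cwo and vri were above both medians, and cry and tim were below both.

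Clock E-boxes lay in reproducible Hr51 peaks at a share near that of the sequence that such peaks cover. The sequence CACGTG, searched on both strands (it is its own reverse complement), was found 40 times in the 10 genes and their flanks of 1 kb, 13 times in Pdp1, 9 in cwo, 6 in per, 4 in vri, 3 in Pdfr, 2 each in tim and Clk and 1 in cyc. It was not found in cry or Pdf. Of the 40, 2 lay in a reproducible peak, and both were in weak or middling Pdp1 peaks. One was 18 bp from the summit of signal 144 shown above, and the other was 123 bp from the summit of 379. Reproducible peaks cover 3.98% of the sequence searched and held 5% of its E-boxes, and over the main chromosomes they held 1.44% of 16428.

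The longer pooled list held more of the E-boxes. Of the 40, 10 lay in a pooled peak (25%), 5 of them in cwo, 3 in Pdp1 and 2 in vri. These 10 include the 2 that lay in reproducible peaks. Pooled peaks cover 11.4% of the sequence, and 9.30% of E-boxes of the main chromosomes lay in one. A single pooled peak in the cwo intron, from 10393056 to 10393465 with a signal of 55.2, held 3. These E-boxes share genes and peaks, so they are not separate observations. The replicate 1 list held 6 of the 40 (15%) and covers 10.6% of the sequence. The replicate 3 list held 13 (32.5%) and covers 11.8%. None of the 11 E-boxes within 1000 bp of a TSS lay in a reproducible peak, but such peaks cover only 3.98% of the sequence searched. A count of 11 is too small to read against that share. The pooled, replicate 1 and replicate 3 lists held 1, 1 and 3 of the 11. The E-box 528 bp upstream of the per start site was 287 bp from the replicate 1 summit and outside that peak, and the one in tim, 185 bp downstream of a start site, was 420 bp from the reproducible summit.

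Within 50 bp of the 21 summits the other motifs were also rare, as they were over all 7229 reproducible summits. CACGTG was at 1 of the 21, against 0.498% of all. The nuclear receptor half-sites were AGGTCA, at none of the 21 against 2.14%, and AAGTCA, at 1 (cwo, 41 bp from the summit) against 5.92%. TTATGTAA, a form of the site for VRI and PDP1, was at none, against 1.56%. GAGAG, bound by GAGA factor, was at 2 (tim and the Pdp1 summit of 189) against 8.30%. CGATA was at 2 (cry, and the Pdp1 summit of 188) against 10.9%, and the longer TATCGATA, bound by DREF and BEAF-32 and overlapping CGATA, was at none against 0.678%. Both strands were searched for each. A match shows only that the letters are present, and among the 6 strongest summits that of cwo alone held one.

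A feature that the strong clock gene summits share is poor G and C content, which is visible in the sequences printed above. The 101 bp at the Pdp1 summit of 1419 held 17.8% G and C, with 40.6% and 49.5% in windows centred 300 bp to either side. At cwo the window held 29.7%, with 43.6% and 36.6% to the sides. At the vri summit of 921 it held 31.7%, with 46.5% and 44.6%. Each of the 6 strongest was below both of its sides, and over these 6 the content was 17.8 to 31.7%. Of the 21, 16 were below both sides (76.2%), and of all reproducible summits 75% were. The median was 27.7% at the 21 summits and 29.7% at all.

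**Figure D4:**
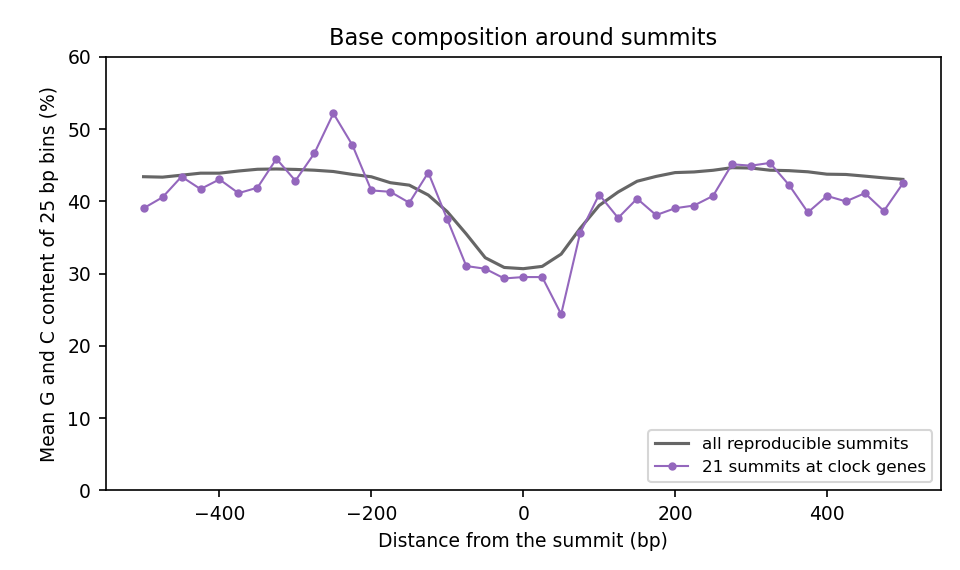
Mean G and C content of 25 bp bins (%) by distance from the summit (bp), for the 21 summits at clock genes and for all 7229 reproducible summits. Both curves dip around the summit, to 29.52% and 30.68% in the bin at 0; the curve of the 21 has its lowest bin, 24.38%, 50 bp to one side.

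Genes that work with the clock were taken as a list of 65, by role, which was chosen with earlier results of these data known. Of these, 33 had a reproducible summit (50.8%), against the 30.4% of all protein-coding genes. The list is rich in long genes: 23 of 34 genes of 10 kb and over had a summit, where 66.7% of all genes of that size did. Of those between 2 and 10 kb 8 of 22 had one, where 31.5% of all genes of that size did, and of those under 2 kb 2 of 9 had one, where 18.5% did. Within each size class the share was close to that of other genes.

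Counts by role are a description, to be set beside 30.4% of all genes and 66.7% of those of 10 kb and over. Some of these summits lie outside the gene they are counted for, and other genes near them are not given here. Summits were found at 6 of 9 kinases and phosphatases of clock proteins, of which 4 are of 10 kb and over. The strongest was at sgg, the fly GSK-3 kinase that acts on TIM, with a signal of 1975 (844 in replicate 1 and 1127 in replicate 3), 194 bp upstream of a start site. The kinase gene dco (doubletime), whose product acts on PER, had 685, and tws, a phosphatase subunit gene, 520. Of the 5 protein turnover genes, ctrip alone had one, at 816. Of the transcription and chromatin partners, 7 of 10 are of 10 kb and over and 8 of 10 had a summit, led by Trl (GAGA factor) at 4749, the co-activator nej at 1754 and Eip75B, which encodes the E75 receptor, at 1540 and with 11 summits. These were also stronger than any summit in the 10 clock genes. Another of the 8 was Hr51 itself, the gene of the tagged protein, with 6 summits and a strongest signal of 1227. It also counts among the 33 of the 65 related genes.

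Among translation factors of clock mRNAs 3 of 6 had one, all weak (Fmr1 284, NAT1 152, Atx2 137). Among genes for excitability and output of clock neurons 5 of 11 had one, although 10 of the 11 are of 10 kb and over, with the potassium channel gene Irk1 at 1257, the Ih channel gene at 492 and Mid1 at 195. Of 17 neuropeptide and receptor genes, 9 of them of 10 kb and over, 7 had one. There Dh31-R, which encodes a receptor related to that of PDF, reached 1627, with 707 in replicate 1 and 917 in replicate 3, and ITP and the leucokinin receptor gene Lkr reached 772 and 596. The summit at Lkr lay past the end of that gene, 17183 bp downstream of its start site. Dh31-R thus had a strong promoter summit, 249 bp upstream of its start site, where Pdfr had none. Of 7 light input genes 3 had one, with the phospholipase C gene norpA at 1717, the rhodopsin gene Rh5 at 412 and qsm at 288.

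**Figure D5:**
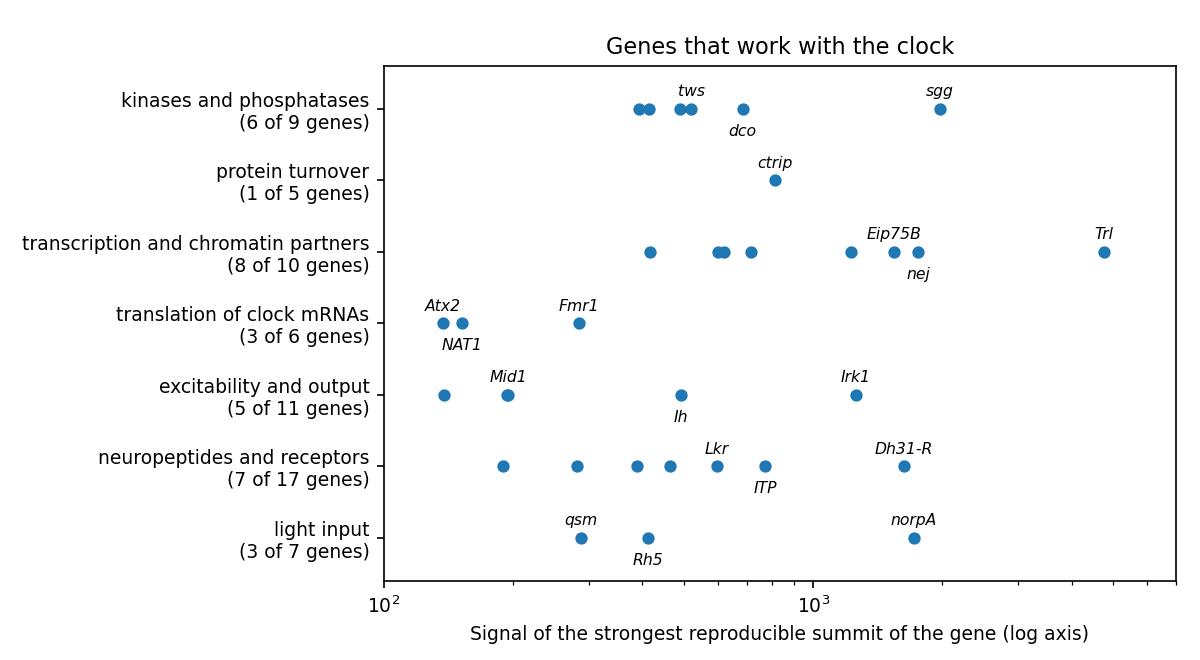
Signal of the strongest reproducible summit (log axis) of each gene that works with the clock, by role, with the number of genes that have one of the number listed. Trl at 4749 and sgg at 1975 are the highest, and the 3 translation genes are all below 300.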

How the data were processed

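Binding of Hr51 fused to GFP was mapped by ChIP-seq in 2 samples of whole embryos, 1 group given by the labels as biological replicates 1 and 3. The authors deposited peak lists on dm6; a notes file deposited with each replicate describes its list as derived from that replicate's alignment and a control alignment. The sources used here name no aligner, caller or settings, and no control sample was analysed here. Each peak has a score deposited by the authors, called signal. Each also has a deposited −log10 q-value, which was 4.25 in all 7229 reproducible peaks and so ranked nothing there. A further deposited column gives the summit as an offset from the peak's start. Read depth was unknown, so no interval was given for a signal.

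Summits were assigned to genes of Ensembl annotation release 115 within 1000 bp, and replicates were matched by overlap of at least 1 bp, taking the nearest summit. Motifs were searched on both strands within 50 bp of each summit. Scripts used Python 3.11.15, numpy 2.4.6, pandas 2.3.3 and matplotlib 3.10.9, and the assignment and motif search were tested on simulated data. All 10 genes were named, with other genes sharing their summits and the 3 strongest of each role. In the list of 65 related genes, Irk1, Mid1 and Hug were matched by older symbols. The 10 clock genes were fixed by name in advance of this report. The related genes, lists and motifs were chosen with earlier results of these data known. The G and C content was looked at after the sequences were seen. With 1 group there was no test. Alternatives were other windows, other lists and each replicate alone.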

Additional observations from a re-analysis of the deposited data

How the results depend on the processing

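No paired analysis was possible because there was 1 group. Windows of 500 or 2000 bp, whole intervals in place of summits and 1 summit per interval left 5 clock genes with a summit. Of all 13945 protein-coding genes these settings left 3810, 5117, 4386 and 4239, in that order. The gene body alone left 4 clock genes, without cry, against 2032 of all protein-coding genes. The stronger 3614 peaks left 4, without tim, against 2955 of all protein-coding genes. With the highest peaks of a single replicate the counts were 4 to 5 genes, 18 to 19 summits and 3 to 4 genes with a promoter summit. Of all protein-coding genes, 4300 had a summit with the highest replicate 1 peaks and 4531 with those of replicate 3. The matching counts for promoter summits are not given here. The 21 summits became 10 with the stronger 3614 peaks, 55 in the pooled list, 51 in replicate 1 and 60 in replicate 3, since those lists are shorter or longer. The 4239 protein-coding genes with a summit became 2032 with the gene body alone, 6550 in the whole replicate 1 list and 6890 in the whole replicate 3 list. Motif counts are small and moved with the window: at 25 bp on each side AAGTCA was at 0, GAGAG at 1 and CGATA at 0 of the 21, and at 100 bp AAGTCA was at 2, TTATGTAA at 1 and GAGAG at 4. With 2 libraries of unknown depth, peaks that are weak or listed in 1 library alone, such as those at per, tim and Pdfr, cannot be given an error.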
